A study of Mus musculus with 12 samples.

Results

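The genes described here are 10 transcription factors that steer blood progenitors into the monocyte, dendritic cell and granulocyte lineages: Spi1, Runx1, Irf8, Zeb2, Id2, Gfi1, Cebpe, Cebpa, Cebpb and Cebpd. They were chosen by name from the deposited table of 23420 genes. Of these, 9 were found under these symbols and Spi1 under its older symbol Sfpi1, and all 10 had enough counts to be among the 9742 genes tested. The libraries came from myeloid-derived suppressor cells of the monocytic type (M-MDSCs), taken from bone marrow by a sort for CD11b+Ly6G-Ly6Chi cells. The source was male C57BL/6JNIA mice without transgene or treatment, 6 aged mice of 24 months and 6 young mice of 6 months, with 1 library per mouse. Mice are named by the numbers of their labels, 1, 2, 4, 5, 6 and 7 in the aged and 1, 2, 5, 6, 9 and 10 in the young group. The sample labels give the tissue as tibia and the cell type as bone marrow. The question put to these genes was whether their transcripts differed between the ages, and how the monocyte factor Irf8 stood against the granulocyte factors Cebpe and Gfi1 in each animal.

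Myeloid fate is set by a small network of factors that act by their relative amounts. PU.1, the product of Spi1, and C/EBP-alpha, the product of Cebpa, open the myeloid programme, after which IRF8 favours monocytes and dendritic cells while GFI1 and C/EBP-epsilon favour granulocytes. C/EBP-epsilon is needed for the secondary granules of neutrophils, and IRF8 and GFI1 are known to oppose each other's programmes. Bone marrow monocytes of the Ly6Chi class carry IRF8 and respond to macrophage colony-stimulating factor through the receptor encoded by Csf1r.

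Library totals ran from 8737941 to 16300374 counts in the aged mice and from 4613239 to 9079237 in the young mice. The alignment files carry numbers of 11 to 16 in young mice and 17 to 19 and 24 to 26 in aged mice, so that number and age cannot be told apart. Levels are given as CPM, counts scaled to the normalized library total, and as CPM per kb of exon length where genes are compared with each other. In bulk RNA, fewer cells of a type and less RNA per cell cannot be told apart. The sorted fraction was checked against marker genes. Itgam, which encodes CD11b, stood at rank 62 of the 9742 tested genes by mean CPM per kb and Ly6c2, which encodes the Ly6C antigen, at rank 52. The neutrophil secondary granule gene Ngp stood at rank 3, Lcn2 at 5, Ltf at 8 and Camp at 11, and the 7 secondary granule genes listed took 8.31% to 10.5% of the counts in aged and 7.53% to 9.18% in young mice. Of other monocyte genes, Csf1r stood at rank 1709, Fn1 at 4383, Ccr2 at 4570, F13a1 at 5658 and Fcgr1 at 8474. Ly6g was not analysed here. The libraries are called M-MDSCs here after the sort alone, while their most abundant transcripts included those of neutrophil granules.

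The C/EBP members are close relatives, which bears on whether their reads could be assigned. The coding stretch most alike among Cebpa, Cebpb and Cebpe is shown because it covers the basic region that touches DNA. It was read from GENCODE M21 transcripts (GRCm38, the same build as mm10), 90 bases 5′ to 3′ on the coding strand, with capitals at the bases that are identical in all 3 genes. It lies at chr7:35120280-35120369 (plus strand) in the only exon of Cebpa, at chr2:167689700-167689789 (plus) in the only exon of Cebpb and at chr14:54710671-54710760 (minus) in exon 2 of 2 of Cebpe.
Cebpa: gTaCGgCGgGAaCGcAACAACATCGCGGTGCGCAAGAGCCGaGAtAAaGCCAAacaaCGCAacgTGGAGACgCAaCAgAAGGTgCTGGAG
Cebpb: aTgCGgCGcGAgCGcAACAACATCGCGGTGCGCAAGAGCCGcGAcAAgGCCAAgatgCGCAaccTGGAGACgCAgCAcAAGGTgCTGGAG
Cebpe: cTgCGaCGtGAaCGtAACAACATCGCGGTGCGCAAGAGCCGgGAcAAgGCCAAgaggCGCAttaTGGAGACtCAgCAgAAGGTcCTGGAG
In this stretch 70 of 90 bases were identical in all 3 genes, and pairs shared between 80.0% (Cebpa and Cebpe) and 85.6% (Cebpb and Cebpe). Over whole transcripts the longest exact run shared by any pair of the 10 factors was 29 bases, between Cebpa and Cebpb. The authors kept fragments of paired reads with a mapping quality of at least 60.

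Of the 10 factors, 2 were called higher in aged M-MDSCs (Spi1 and Id2), 2 were called lower (Runx1 and Cebpb) and 6 did not pass the test at an adjusted p of 0.05 (edgeR's quasi-likelihood test, Benjamini-Hochberg adjustment over all genes tested). Among all genes tested 22.4% were called higher and 23.0% lower, 45.4% in all, so the share of the factors that was called lay close to this background. These were 2185 genes higher and 2240 lower with scaling by TMM factors, and 1682 higher and 2762 lower with library totals alone, under which the same 4 factors were called in the same directions. The median log2 fold change, aged minus young, was 0.08 over the 10 factors and 0.01 over all genes tested. For 2 factors, Id2 and Runx1, the values of the ages did not overlap, against 21.8% of all genes tested. The age difference depended on gene length across the table, with a median log2 fold change of 0.31 in the shortest 25% of genes and -0.27 in the longest 25%. Each factor is therefore given with and without a correction for length, after which 34.9% of all genes tested were called.

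**Figure D1:**
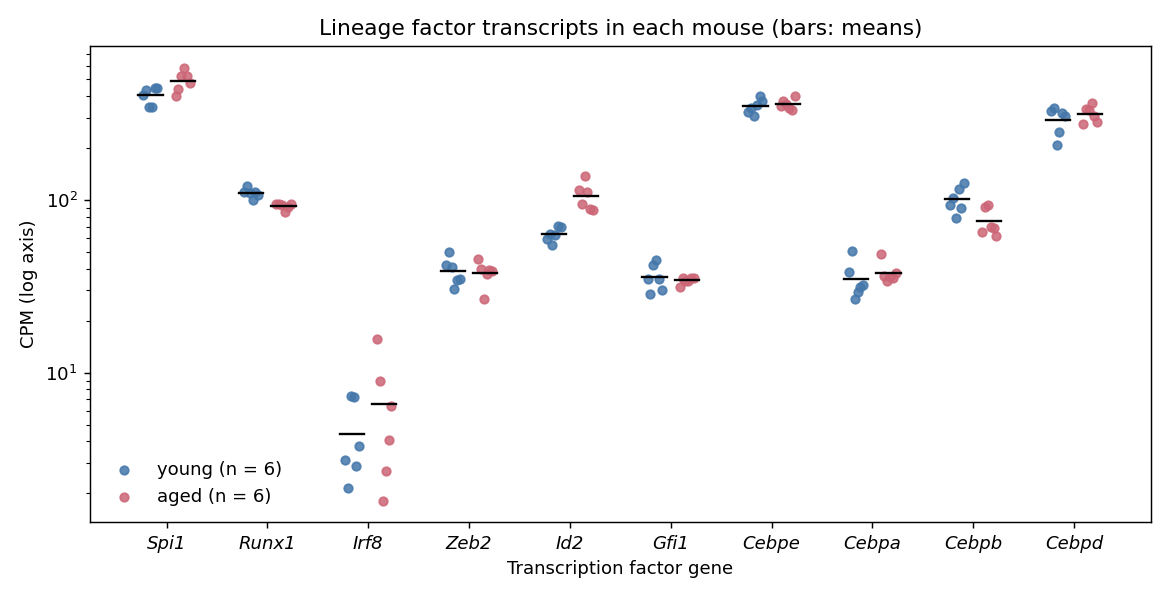
CPM of the 10 factors on a log axis, with 1 point per mouse (6 young, 6 aged) and a bar at the mean of each age. The aged points of Id2 (87.6 to 139 CPM) lie above all young points (54.8 to 70.4 CPM), those of Runx1 lie below, and the points of Irf8 spread most.

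Spi1 encodes PU.1, the ETS factor on which both monocytes and granulocytes depend. It lies at chr2:91096797-91115756 of mm10 and has 5 exons in the annotation. Its CPM was 399 in the lowest, 498 in the median and 585 in the highest aged mouse, and 347, 422 and 443 in the young mice. Aged mice 4, 5, 6 and 7 lay above every young mouse, while aged mice 1 and 2 lay within the young range. The log2 fold change was 0.28 (SE 0.098, adjusted p = 0.0301, edgeR). The call was lost after correction for gene length, with 0.03 (adjusted p = 0.818, edgeR), and after correction for GC content, with 0.21 (adjusted p = 0.0919, edgeR). It was kept in 7 of 12 fits that left out 1 mouse, and was lost without aged mouse 4, 5 or 6 or young mouse 5 or 6 (adjusted p = 0.0535 to 0.0702, edgeR).

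Runx1, the core-binding factor subunit that starts definitive blood formation and later cooperates with PU.1, lies on the minus strand of chr16:92601466-92826066 with 8 exons. Its CPM ran from 85.2 through a median of 94.3 to 95.2 in aged mice and from 101 through 111 to 121 in young mice. The aged range was narrow and lay wholly below the young one. The log2 fold change was -0.25 (SE 0.058, adjusted p = 0.003, edgeR), and it was called lower whichever of the 12 mice was left out. With a length of 7369 bases it is among the long genes, and after correction for length the estimate turned to 0.12 (adjusted p = 0.151, edgeR), so its direction rested on the treatment of length.

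Irf8 encodes the interferon regulatory factor that commits progenitors to monocytes and dendritic cells. It lies at chr8:120736376-120756692 with 9 exons. Only 10 to 141 fragments per mouse were counted, and its CPM was 1.82 in the lowest, 5.23 in the median and 15.7 in the highest aged mouse against 2.14, 3.46 and 7.38 in the young mice. The young range lay inside the aged one. Aged mouse 1 was highest with 15.7 CPM (95% exact Poisson interval 13.2 to 18.5, counting error only) and aged mouse 4 lowest with 1.82 CPM (1.06 to 2.91). The log2 fold change of 0.51 (SE 0.454) did not pass the test (adjusted p = 0.375, edgeR), and without aged mouse 1 it was 0.06 (adjusted p = 0.922, edgeR). The coefficient of variation of Irf8 was 78.2% in aged and 51.8% in young mice, at percentile 98.8 and 97.9 of all genes tested, whose medians were 13.04% and 14.7%.

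Zeb2, a zinc finger repressor that acts in monocyte and dendritic cell development, lies at chr2:44983634-45113279 on the minus strand with 10 exons. Its CPM was 26.8, 39.0 and 45.6 in the lowest, median and highest aged mouse and 30.5, 37.7 and 49.7 in young mice. The ages overlapped almost fully, and the log2 fold change was -0.02 (SE 0.129, adjusted p = 0.908, edgeR). Zeb2 has the largest exon length of the 10 with 9113 bases, and after correction for length it was called higher, with 0.48 (adjusted p = 0.0138, edgeR).

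Id2 encodes an inhibitor that lacks a DNA-binding region and holds E proteins away from their sites, and it is used by dendritic cells and innate lymphocytes among others. It lies at chr12:25093799-25096092 on the minus strand with 3 exons. Its CPM was 87.6, 103 and 139 in the lowest, median and highest aged mouse and 54.8, 63.4 and 70.4 in the young mice. Every aged mouse lay above every young mouse. The log2 fold change of 0.74 (SE 0.110, adjusted p = 1.55e-04, edgeR) was the largest of the called factors, and it ranked 383 of 9742 genes by p. The rise held whichever of the 12 mice was left out (0.65 to 0.79) and after correction for length (0.47, adjusted p = 0.00263, edgeR). The related inhibitor Id1 differed by -0.05 on the log2 scale (adjusted p = 0.747, edgeR), Id3 had at most 5 counts in a mouse and was not tested, and the E proteins Tcf3, Tcf12 and Tcf4 did not pass the test (log2 fold changes -0.06, -0.29 and -0.01). With length corrected, Id1 was called lower (-0.45, adjusted p = 0.00442, edgeR) and Tcf4 higher (0.39, adjusted p = 0.0211, edgeR).

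Gfi1, a zinc finger repressor required for neutrophil production, lies at chr5:107716655-107725805 on the minus strand with 7 exons. Its CPM was 31.2, 34.7 and 35.5 in aged and 28.7, 34.8 and 45.1 in young mice, as lowest, median and highest. The aged values fell inside the young range, and the log2 fold change was -0.08 (SE 0.104, adjusted p = 0.576, edgeR). Of the genes listed as repressed by GFI1, 4 were tested, of which 2 were called lower (Egr1, log2 fold change -0.70, and Csf1, -0.50), and Egr2 and Cdkn1a did not pass the test. Csf1 was not called after correction for length (-0.35, adjusted p = 0.203, edgeR), and neither gene was called in the 8 mice whose label numbers occur in both ages.

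Cebpe, at chr14:54710363-54712174 on the minus strand with 2 exons, encodes C/EBP-epsilon, the factor of the later granulocyte stages. Its CPM was 332, 355 and 401 in aged and 307, 348 and 401 in young mice. The ages overlapped over nearly their whole range, with a log2 fold change of 0.04 (SE 0.073, adjusted p = 0.666, edgeR). After correction for length, which affects this gene of 1238 bases in the other sense than the long genes, the estimate was -0.24 (adjusted p = 0.0178, edgeR). The secondary granule genes, several of them known to need C/EBP-epsilon, were 7 in number. Of these, 4 were called higher in aged mice: Camp (log2 fold change 0.47), Cd177 (0.37), Ngp (0.36) and Lcn2 (0.35). Ltf, which encodes lactoferrin, stood at -0.06 (adjusted p = 0.699, edgeR), and Mmp8 and Mmp9 did not pass the test. After correction for length only 1 of the 7 was called, and the median fell from 0.35 to 0.06.

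The primary granule genes, made earlier in granulocyte development, were also read. All 5 with enough counts were called higher in aged M-MDSCs: Prtn3 (log2 fold change 1.54), Elane (1.25), Mpo (0.99), Ms4a3 (0.44) and Prss57 (0.43). Prtn3, which encodes proteinase 3, ran from 3.69 to 6.01 CPM in aged and from 0.781 to 2.31 CPM in young mice. These were low levels, and 3 of the 5 remained called after correction for length. Of the genes listed as PU.1 targets, 9 were tested and 1 was called, Itgam, which was lower in aged mice (log2 fold change -0.22, adjusted p = 0.0285, edgeR). With the length correction Itgam stood at -0.05 (adjusted p = 0.575, edgeR), while Cybb (0.25) was called higher and Btk (-0.24) lower. Csf1r was at 0.07 (adjusted p = 0.704, edgeR), and the median of the 9 was -0.11.

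The other C/EBP members went different ways. Cebpa, which drives progenitors to the shared granulocyte and monocyte stage, lies at chr7:35119293-35121931 with 1 exon. Its CPM was 34.1, 36.3 and 48.4 in aged and 26.9, 31.7 and 50.6 in young mice. The young range enclosed the aged one, and the log2 fold change of 0.14 (SE 0.137) did not pass the test (adjusted p = 0.408, edgeR).

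Cebpb encodes the C/EBP member that sustains granulocyte output under stress and is active in macrophages, and it lies at chr2:167688915-167690418 with 1 exon. Its CPM was 62.3, 69.7 and 93.2 in aged mice and 79.0, 98.5 and 125 in young mice. Aged mice 1, 5, 6 and 7 lay below every young mouse, while aged mice 2 and 4 (90.8 and 93.2 CPM) lay within the young range. The log2 fold change was -0.43 (SE 0.126, adjusted p = 0.0124, edgeR). The fall held whichever of the 12 mice was left out (-0.49 to -0.35) and more clearly after correction for length (-0.64, adjusted p = 0.00116, edgeR) or GC content (-0.65, adjusted p = 5.95e-04, edgeR).

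Cebpd, an inducible C/EBP gene of the acute-phase response, lies at chr16:15887286-15889545 with 1 exon. Its CPM was 276, 319 and 364 in aged and 209, 312 and 339 in young mice. The ranges overlapped, with a log2 fold change of 0.12 (SE 0.113, adjusted p = 0.402, edgeR). After correction for length Irf8 stood at 0.51, Gfi1 at -0.05, Cebpa at 0.12 and Cebpd at 0.05, and none of the 4 was called.

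**Figure D2:**
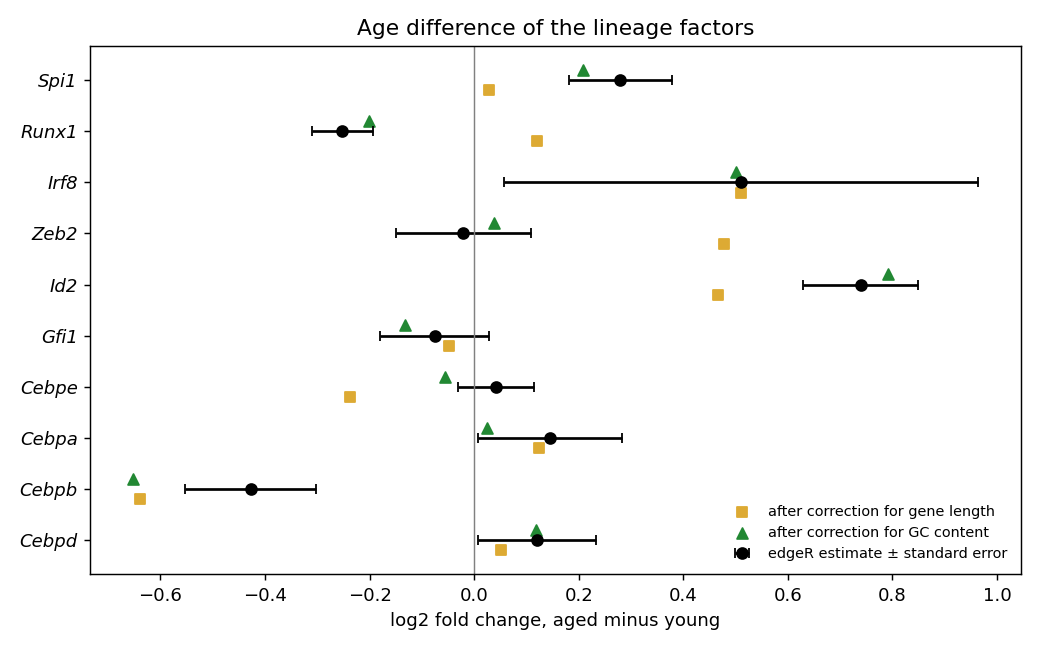
Log2 fold change, aged minus young, of each factor from edgeR with its standard error (circles), and the estimate after correction for gene length (squares) or GC content (triangles). Id2 stays right of 0 and Cebpb left of 0 under all 3, whereas Runx1, Zeb2 and Cebpe change side with the length correction, the last 2 also with the GC correction.

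Per kb of exon, Spi1 and Cebpe were the most abundant of the 10 factors and Irf8 the least. In aged mice the means were 368 CPM per kb for Spi1, 291 for Cebpe, 140 for Cebpd, 83.4 for Id2, 50.0 for Cebpb, 14.4 for Cebpa, 12.6 for Runx1, 11.02 for Gfi1, 4.16 for Zeb2 and 2.34 for Irf8. Only the neighbours Spi1 and Cebpe, and Zeb2 and Irf8, overlapped in their values over the 6 aged mice. In young mice the means were 303 for Spi1, 283 for Cebpe, 129 for Cebpd, 67.1 for Cebpb, 49.9 for Id2, 14.97 for Runx1, 13.2 for Cebpa, 11.6 for Gfi1, 4.25 for Zeb2 and 1.57 for Irf8. Here Spi1 overlapped with Cebpe, Cebpb with Id2, Runx1 with Cebpa and Cebpa with Gfi1, while the other neighbours were separate. Id2 and Cebpb thus stood in opposite order in the 2 ages, with a log2 ratio of Id2 to Cebpb per length between 0.31 and 1.05 in aged and between -0.63 and -0.10 in young mice. This ratio was looked at after both genes had been called and was not tested. The log2 ratio of Spi1 to Cebpa per length was 4.67 ± 0.36 (SD, n = 6) in aged and 4.55 ± 0.27 (SD, n = 6) in young mice, with overlapping values.

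The comparison within each animal set the monocyte factor against the granulocyte factors. In every mouse Irf8 was the lower of the pair: Cebpe exceeded it per length by 50.9-fold to 438-fold and Gfi1 by 1.80-fold to 16.6-fold. The log2 ratio of Irf8 to Cebpe was -8.77 in the lowest, -7.34 in the median and -5.67 in the highest aged mouse, and -8.44, -7.82 and -6.56 in the young mice. The ages overlapped, and the difference of the means, aged minus young, was 0.31 (95% interval by exact permutation -0.96 to 1.55, two-sided exact permutation p = 0.591, n = 6 mice per age). The log2 ratio of Irf8 to Gfi1 was -4.05, -2.65 and -0.85 in aged and -3.54, -3.07 and -2.36 in young mice. Here too the ages overlapped, with a difference of 0.40 (interval -0.74 to 1.57, two-sided exact permutation p = 0.481, n = 6 mice per age). Adjusted over the 2 ratios, both exact permutation p-values were 0.591. Without aged mouse 1 the differences were -0.021 and 0.056 (exact permutation p = 0.957 and 0.924), so both positive values rested on that mouse. The intervals leave room for a change of either sign. All these differences are given without the correction for the length trend. After that correction the log2 fold change was 0.51 for Irf8 (not called), -0.24 for Cebpe (called lower) and -0.05 for Gfi1 (not called).

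**Figure D3:**
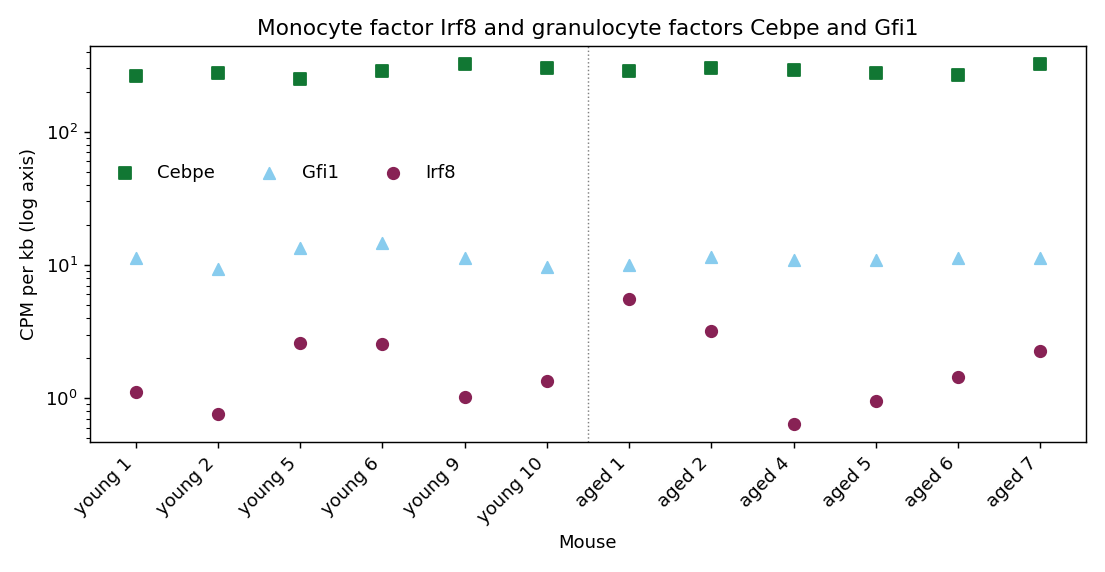
CPM per kb of Cebpe (squares), Gfi1 (triangles) and Irf8 (circles) in each mouse on a log axis, young mice to the left and aged mice to the right of the dotted line. Cebpe and Gfi1 form nearly level rows, and the circles of Irf8 spread from 0.643 to 5.56 CPM per kb in aged mice and from 0.758 to 2.61 in young mice.

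The ratio of the granulocyte factors to each other, Cebpe over Gfi1 per length, had log2 values of 4.56 to 4.83 in aged and 4.20 to 4.96 in young mice, and its age difference was not tested. The gene whose profile over the 12 mice was most like that of Irf8 was Fcgr1, which encodes the high-affinity IgG receptor of monocytes and macrophages, with a mean absolute difference of 0.25 between centred log2 CPM profiles. Tbc1d9 and Cd2ap followed with 0.29 each, and the median over all genes tested was 0.77. Fcgr1 had 9.92 CPM in aged mouse 1 and 0.855 in aged mouse 4, the mice with the highest and the lowest Irf8. As Fcgr1 was picked for its likeness to Irf8 over these same 12 mice, this match is no separate support. For Cebpe the nearest profiles were those of Inip (0.038), Nucb1 (0.052) and Sept5 (0.055), against a median of 0.24.

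Markers of monocytes and of other cells were read beside Irf8. All 8 classical monocyte markers had enough counts, and 5 of them, F13a1 (2.57 CPM), Ccr2 (5.03), Fn1 (14.3), Vcan (1.28) and Ms4a6c (2.25), were at their lowest of all 12 mice in aged mouse 4, which was also lowest in Irf8. Of the other 3, Ly6c2 (605 CPM) and Cd14 (11.4 CPM) lay above every young mouse there and Csf1r (140 CPM) was higher than in 3 other aged mice. Young mice 5 and 6, with the highest Irf8 of their age (7.38 and 7.23 CPM), had the highest F13a1, Ccr2, Fn1, Vcan and Ms4a6c of the young mice, with F13a1 at 39.2 and 38.0 CPM. Their Ly6c2 (367 and 387 CPM) and Csf1r (120 and 111 CPM) were the lowest of the young mice. Cd14 was the lowest of the young mice in young mouse 5 (3.69 CPM) and the highest in young mouse 6 (8.96 CPM). Young mice 5 and 6 also had the highest sum of 10 proliferation genes (1319 and 1293 CPM, against 387 to 863 CPM in the others). The part of these genes in the Irf8 values was not tested. Aged mouse 1 combined the highest Irf8 and Csf1r (205 CPM) with F13a1 at 18.6 CPM.

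Between the ages, Ly6c2 (log2 fold change 0.54) and Cd14 (1.11) were called higher in aged mice, and the 6 others did not pass the test. Cd14 stayed called after correction for length (0.90), while Ly6c2, which encodes an antigen of the sort, did not (0.11, adjusted p = 0.322, edgeR). The 8 summed to 783 to 1141 CPM in aged and 762 to 906 CPM in young mice.

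All 9 resident macrophage markers tested were called higher in aged mice, with a median log2 fold change of 2.51, which was 1.59 without aged mouse 1. The 10 listed summed to 89.0 to 1124 CPM in aged and 76.5 to 95.2 CPM in young mice, with 1124 CPM in aged mouse 1 and 371 CPM in aged mouse 2, the mice with the highest and next highest Irf8. Without aged mouse 1, 8 of the list were called by edgeR. Over all 12 mice, limma-voom called 5. None of the 10 was at 0 in a mouse. In the young mice the sum varied little while Irf8 varied 3.44-fold between the lowest and the highest mouse. The part of macrophage transcripts in the values of Irf8 and the other factors was not tested.

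**Figure D4:**
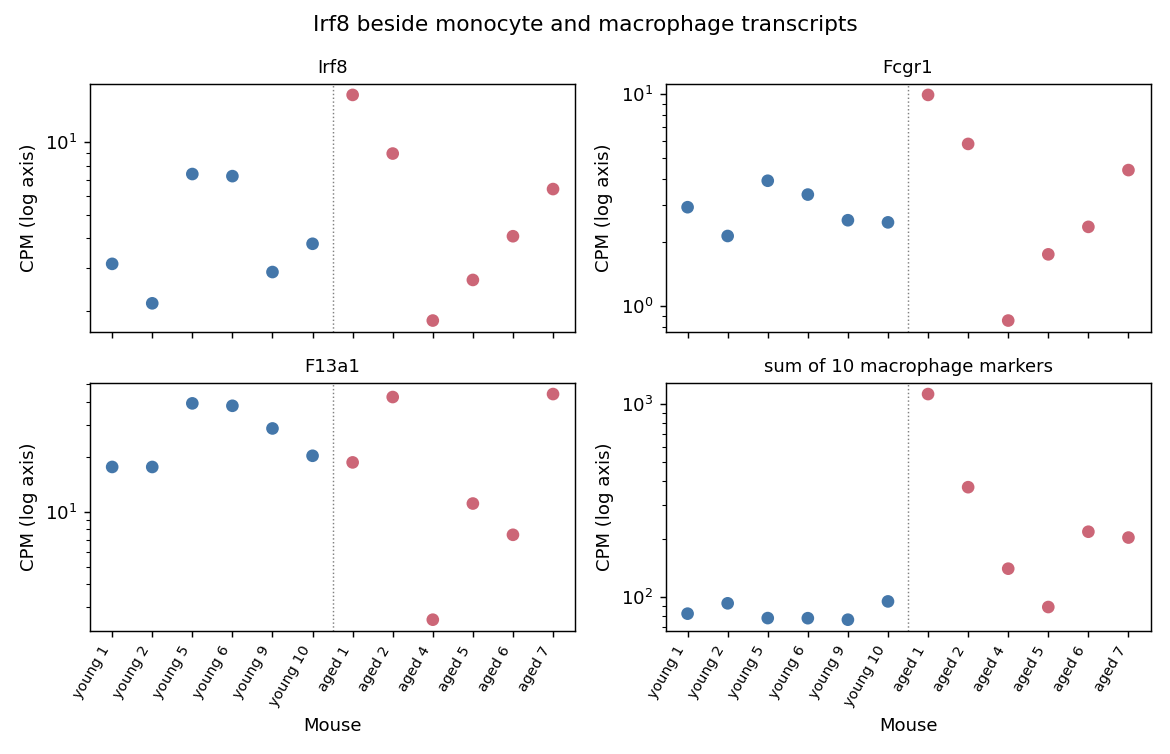
CPM on log axes of Irf8, of the monocyte genes Fcgr1 and F13a1 and of the sum of 10 resident macrophage markers, with 1 point per mouse (blue young, red aged). Aged mouse 1 is highest in Irf8 (15.7), Fcgr1 (9.92) and the macrophage sum (1124), and aged mouse 4 is lowest in the first 3 panels. Fcgr1 was picked for its likeness to Irf8.

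Other cell types were read from marker lists in the same way. Of the dendritic cell markers 3 were tested, of which H2-Ab1, an MHC class II gene that macrophages and B cells share, was called higher (log2 fold change 2.30, and 1.48 without aged mouse 1, where it stood at 163 CPM; adjusted p = 0.0785 and not called with limma-voom), Clec9a lower (-2.45, 0.428 to 1.40 CPM in aged and 2.54 to 6.21 CPM in young mice), and Itgax did not pass the test. Xcr1, Flt3, Zbtb46 and Cd209a had at most 7 counts in a mouse. Of the mature neutrophil markers 2 of 6 were called, both higher (Stfa2l1, 1.18, and Retnlg, 0.55), and after correction for length they stood at 0.52 and 0.01, with Stfa2l1 alone still called. Of the plasmacytoid dendritic cell, B and plasma cell, and T and NK cell lists, 1, 2 and 1 genes were tested and none was called by edgeR, with 0, 1 and 1 under an unadjusted p of 0.05. EdgeR called 1 B and plasma cell marker, Sdc1 without the filter on low counts and Cd79b without aged mouse 4, aged mouse 5 or young mouse 1, and the T and NK cell gene Nkg7 without young mouse 10. DESeq2 called 2 of the B and plasma cell markers, limma-voom none of the 3 lists, and the length correction the plasmacytoid list's Tcf4. In the same fit as the factors Siglec5 of the basophil and eosinophil list was called higher (0.38). No erythroid marker passed the filter on low counts, and Hba-a1 and Hba-a2 were at 0 in all mice. The erythroid markers summed to 0.855 to 7.58 CPM in aged and 0.116 to 0.643 CPM in young mice without overlap, and 3 were called by DESeq2 and by edgeR without the filter. The part of these cells in the values of the factors was not tested. Of the 10 proliferation genes, 2 were called lower, Mki67 (-2.01) and Top2a (-0.62), and the 8 others did not pass the test. Corrected for length, Mki67 stood at -1.45 and stayed called, and Top2a at -0.41 (adjusted p = 0.125, edgeR).

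The factors with which these 10 genes work were read from 6 further lists of 72 regulators, of which 49 are reported with a test. In aged M-MDSCs 14 of these were called lower, against 23.0% of all genes tested, and the median log2 fold change was -0.08. After correction for length 1 was called higher and 12 lower, against 1793 higher and 1604 lower of all 9742 genes tested. The lists are short, and their counts below are to be read beside the 23.0% of all genes called lower.

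Of the partners and cofactors, 7 of 20 were called lower and none higher. Among them were the AP-1 genes Fos (log2 fold change -1.34, SE 0.235, adjusted p = 5.12e-04, edgeR), Jun (-1.01) and Junb (-0.66), while Jund stood at 0.08. Fos ran from 104 to 281 CPM in aged and from 292 to 733 CPM in young mice, and Junb from 256 to 371 and from 376 to 554 CPM. Neither gene overlapped between the ages. Atf4, which encodes a partner of C/EBP proteins in the response to amino acid shortage, was also lower without overlap (-0.59, 85.1 to 112 CPM in aged and 129 to 179 CPM in young mice). The acetyltransferase genes Ep300 (-0.62) and Crebbp (-0.55) and the corepressor gene Rcor1 (-0.42) made up the 7. After correction for length Ep300 and Crebbp were at -0.16 and -0.17 and no longer called, whereas Fos, Junb and Atf4 stood at -1.44, -0.80 and -0.76 and stayed called. Ddit3 (-0.76, adjusted p = 0.00537, edgeR) and Id1, neither called in the main fit, were called lower after that correction.

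Of the 9 monocyte and macrophage factors reported, 3 were called lower. Klf4, a factor of Ly6Chi monocytes, differed by -1.13 on the log2 scale at 0.535 to 2.69 CPM in aged and 1.17 to 4.79 CPM in young mice. Nr4a1 (-1.07) and Egr1 (-0.70), both early-response genes, were the others. The last 2 stayed called after correction for length and Klf4 did not (-1.11, adjusted p = 0.0534, edgeR). Without young mouse 6, Nr4a1 alone of this list was called. Without aged mouse 7 there were 5, with Irf5 and Maf added. In the 8 mice with the label number as a block, Irf5 alone was called. In the main fit Irf5 (0.28) and Maf (1.10) were estimated higher in aged mice and were not called.

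Of the 8 stem and progenitor factors tested, 4 were called lower and none higher: Tal1 (-0.97), Lyl1 (-0.50), Erg (-0.39) and Etv6 (-0.27). Tal1 did not overlap between the ages, with 2.21 to 3.69 CPM in aged and 4.29 to 8.46 CPM in young mice. Ikzf1, Fli1, Lmo2 and Myb did not pass the test. Tal1, Lyl1 and Erg stayed called after correction for length, and Etv6 stood at -0.03 (adjusted p = 0.694, edgeR). None of the 5 dendritic cell factors tested was called by edgeR, limma-voom or DESeq2, with 1 under an unadjusted p of 0.05 and 1 called after correction for length (Tcf4) and, as Relb, with upper quartile factors and without aged mouse 2 or young mouse 1, the largest estimate being that of Irf4 (0.59, adjusted p = 0.464, edgeR), which turned to -0.37 without aged mouse 1, at 9.03 CPM. None of the 5 granulocyte factors tested was called either by these 3 tools, with 0 under an unadjusted p of 0.05 and estimates from -0.25 for Rxra to 0.24 for Rara. In 5 other edgeR settings 1 gene of the list was called: Stat3 with library totals alone (-0.25), without aged mouse 7 and in the 8 mice whose label numbers occur in both ages, Rxra without aged mouse 1 (-0.37), and Lef1 without the filter on low counts. Of the 13 factors of other lineages 2 were tested, Nfe2 and Ikzf3, and neither was called by these tools, with 1 under an unadjusted p of 0.05. In 4 other edgeR settings 1 gene of the list was called, Nfe2 with upper quartile factors, without young mouse 10 and in the same 8 mice, and Gata3 without the filter on low counts.

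**Figure D5:**
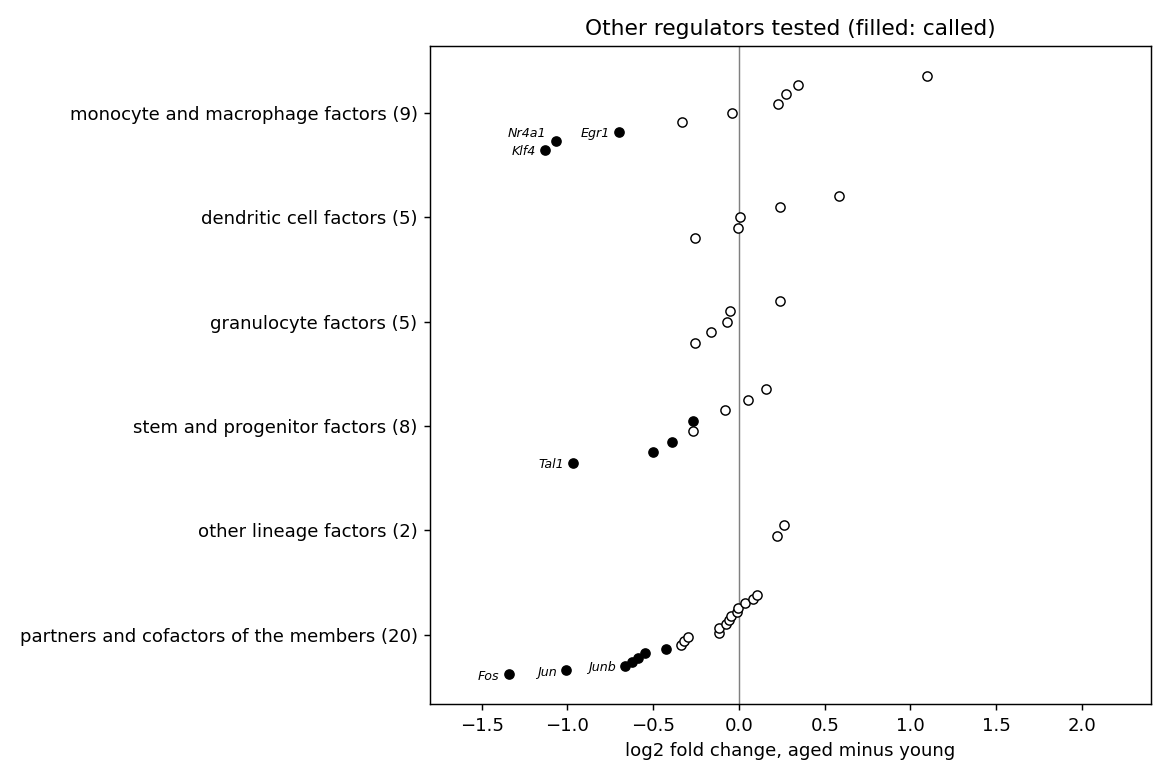
Log2 fold change, aged minus young, of the 49 other regulators reported, by list, with filled points for adjusted p under 0.05 in edgeR. The 14 filled points lie left of 0, and the dendritic cell, granulocyte and other lineage lists have none.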

How the data were processed

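RNA of sorted M-MDSCs was sequenced from 12 male mice, 6 aged and 6 young, with stranded, paired libraries. The deposited values are raw counts of fragments per gene, which the authors obtained with featureCounts 2.0.0 over the exons of an mm10 annotation at a mapping quality of at least 60 and without normalization; bcl2fastq is named in the submitters' processing notes, and the aligner is not given in the sources used here. Groups were taken from the sample labels.

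The 10 factors, the other gene lists and the comparisons were chosen with earlier results of these data known. Genes were kept with filterByExpr (9742 of 23420), scaled with TMM factors and tested with the quasi-likelihood test of edgeR 4.0.16 in R 4.3.3 on the counts, with p-values adjusted after Benjamini and Hochberg for the whole set and called under 0.05. The study used DESeq2 for this comparison, which served here as an alternative (1.42.0), as did voom of limma 3.58.1. CPM use the TMM-scaled total. The standard error is the log2 fold change over the square root of F. The steps were tested on simulated data. Length and GC corrections were offsets from a lowess fit (span 0.3) in each library, with length from the deposited table and GC content computed from the longest GENCODE M21 transcript (99.3% of genes tested).

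Ratios of Irf8 to Cebpe and Gfi1 were taken on counts plus 0.5 divided by exon length and tested by an exact, two-sided permutation of the mice over 924 regroupings, whose smallest p is 0.00216. Intervals were obtained by shifting the aged values until that test reached 0.05. All 10 factors are named. A few listed genes and a sequence are not reported here and are outside the counts of the lists. Genes named from a list were mostly its extremes, its smallest p or its exceptions, and some of these are left unnamed. Ltf, Ccr2, F13a1 and some others were picked with their values in view. Profiles like those of Irf8 and Cebpe were ranked by the mean absolute difference of centred log2 CPM (prior count 2) over the 12 mice. Gene coordinates come from the deposited table (mm10). Older symbols (Sfpi1 for Spi1, Siglec5 for Siglecf) were matched through RefSeq synonyms. Counts of 10 in a mouse, the least for Irf8, carry a wide counting error, and no value of the other factors rested on fewer than 134 counts. Figures were drawn with matplotlib.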

Additional observations from a re-analysis of the deposited data

Results flagged for a closer look

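Among the values of the 10 factors and the 2 ratios, 24 groups of 6 mice were checked for a mouse far from the others, and 2 were flagged, both by aged mouse 1; chance alone flags about 1 group in 20. Cebpa stood at 48.4 CPM in aged mouse 1, and the next aged mouse at 37.7 CPM. Gfi1 stood at 31.2 CPM in that mouse, below the next lowest at 34.0 CPM. Aged mouse 1 was also the mouse with the highest Irf8 and the highest sum of macrophage markers. The part of these markers in both values was not tested.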

How the results depend on the processing

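The number of factors called was 4 in the main fit and 3 or 4 in the alternatives, and between 3 and 4 when 1 mouse was left out; genes called over the whole table ranged from 3804 to 4717 in those fits. Id2 and Cebpb were called in the same direction in all 12 fits that left out a mouse and in all 11 other alternatives. Runx1 was called in the 12 and in 10 of the 11. Spi1 was called in 7 of the 12 and in 8 of the 11. The correction for gene length turned the estimates of Runx1 (0.12), Zeb2 (0.48) and Cebpe (-0.24); the last 2 were then called. The cause was not tested. The difference in the log2 ratio of Irf8 to Cebpe ranged from -0.021 (without aged mouse 1) to 0.60 when 1 mouse was left out, and that of Irf8 to Gfi1 from 0.056 to 0.70, with no exact permutation p under 0.177. Numbers 1, 2, 5 and 6 occur in both ages, but mice of the same number did not deviate together (correlations of -0.14, -0.07, -0.24 and -0.25), so the numbers are taken as names. With the number as a replicate block in these 8 mice, 3 factors and 3467 genes were called, Spi1 was not (log2 fold change 0.33, adjusted p = 0.127, edgeR), and the ratio differences were 0.43 and 0.63; the same mice without the block, a setting chosen after seeing the data, gave 4 factors and 4388 genes. Among the lists, the count of PU.1 targets called went from 1 to 0 in 6 of the 12 fits that left out a mouse, with upper quartile factors and without the filter on low counts, to 2 (Itgam and Btk) without aged 7, young 2 or young 10 and in the 8 mice without the block, and to 3 with library totals alone, and that of genes repressed by GFI1 from 2 to 1 in 8 and to 0 in the 8 mice, with or without the block. Some calls of list genes were lost when 1 mouse was left out: Klf4 without aged 2, 4, 5 or 6 or young 5, 6 or 9, Csf1 without aged 1, 4, 5 or 7 or young 1, 2 or 10, Itgam without aged 1, 2, 4, 5 or 6 or young 6, Camp without aged 1, 2 or 5 or young 1, 5 or 6, Top2a without aged 2, 4, 5 or 6 or young 5 or 6, Jun without aged 5 or 6 or young 5, 6 or 9, Egr1 without young 6, and Cd163 without aged 1 or 2 or any young mouse. Primary granule genes called were 3 with the block and 2 with at least 10 counts in every mouse. Jun and Csf1 were not called with limma-voom (adjusted p = 0.0723 and 0.0523). Among the 10 factors Irf8 had the fewest counts, 10 to 141 per mouse.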
